A study of Mus musculus with 36 samples.

Results

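Pax5 K198Q, a form of the transcription factor Pax5 in which the lysine at the K198 site is replaced by glutamine as a mimic of the acetylated residue, was compared with an empty vector in Pax5-/- pro-B cells. The comparison took in every gene that reached 10 normalized counts in 2 or more of the 4 libraries, 2 with empty vector (EV) and 2 with K198Q, which left 12928 of the 35896 genes in the table. The study asked how SIRT7 and the acetylation of Pax5 act on early B cells, and its RNA-seq comprised 24 mouse libraries, of which 8 were made from Pax5-/- cells. All 4 groups of these 8 libraries share the Pax5-/- genotype and were cultured pro-B cells infected with a retrovirus that carried its marker alone (EV), Pax5WT, K198Q, or K198R, where arginine stands in for the deacetylated lysine. The labels give primary bone marrow as their source, whereas the methods describe Pax5-/- progenitors taken from fetal liver, and the source was not settled here. The cells were grown on OP9 stromal cells inactivated with mitomycin C, with IL-7, SCF and FLT3-L at 10 ng/mL each. The Pax5 forms were driven by the vector and not by the Pax5 locus. Each group had 2 replicates, which the labels do not tie to separate animals and which, per the methods, were generated on different days, so that the p-values measure the spread between these samples.

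Pax5 is the paired-domain transcription factor that commits lymphoid progenitors to the B lineage. It activates genes of the B cell receptor and its signalling chain, such as Cd79a and Blnk, and silences genes of other lineages, such as Flt3 and Notch1. Pro-B cells without Pax5 express Ebf1 and the surrogate light chain, grow with stromal cells and IL-7, and keep the ability to form T cells, NK cells and myeloid cells.

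The libraries of EV and K198Q summed to between 28865461 and 29733473 normalized counts, in which the differences in depth had already been removed by the authors. Pro-B transcripts were abundant in all of them. Igll1, the surrogate light chain gene, had 9646 and 13144 normalized counts in the EV libraries and 21101 and 20814 in the K198Q libraries. Genes used as markers of other lineages were also present. Of 22 listed T cell genes 1, Cd3e, was at 0 in all 4 libraries, and the list summed to 27167 and 27418 with EV and 25280 and 26306 with K198Q, with Notch1 its most abundant gene. Of 17 listed NK and cytotoxic genes 4 were at 0, Gzmb and Ncr1 among them, and the list summed to 10449 and 9314 with EV and 7390 and 6100 with K198Q, with Fcer1g the most abundant. The part of such cells in the results was not tested. Of 15 measured genes of the stromal feeder cells, none was called in either direction by limma, and 1 in each direction had an unadjusted p under 0.05. A positive log2 difference with K198Q was seen in 13 (median 0.45), against 47.7% of all genes compared. Both K198Q libraries lay above both EV libraries in 7 of the 15 and below them in 1. Over all genes compared these orders were seen in 15.8% and 18.3%. The summed level of the feeder genes was 3753 and 4982 with EV and 3885 and 6280 with K198Q. With Pax5WT the sums were 3196 and 8041, so that replicate 2 was the higher one in every group. The part of feeder RNA in the differences that follow was not tested. Fn1 was the most abundant of these genes, and 2 of the 18 listed, Lum and Dcn, were at 0 in all 4 libraries. In bulk RNA, fewer cells of a type and less RNA per cell cannot be told apart.

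Pax5 itself had 2201 and 2103 normalized counts with EV and 8918 and 8963 with K198Q. Both K198Q libraries lay above both EV libraries, by 4.15-fold in the means (log2 difference 2.05 ± 0.12 SE, limma adjusted p = 0.000569). The reads of the vector and of the disrupted locus were not told apart in this value. With Pax5WT the transcript reached 6458 and 6152 normalized counts, and K198Q was above it by 0.50 on the log2 scale (95% interval 0.23 to 0.78, unadjusted p = 0.00291, limma adjusted p = 0.558). With K198R it reached 21162 and 16609. The groups thus differed in the amount of Pax5 transcript as well as in the residue, and K198Q had more transcript than Pax5WT in its point values. Pax5 protein was not measured here. In a transfected cell line the paper found the K198Q protein at a lower level and with a shorter half-life than wild-type Pax5. The order of the transcripts is thus not that of the protein.

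Among the genes that passed the test, more were higher than lower with K198Q. With a limma adjusted p under 0.05 together with a log2 fold change of 1.5 or more in size, 84 genes were higher with K198Q (0.65% of the genes compared) and 4 were lower (0.0309%). With no limit on the fold, 116 genes were higher (0.897%) and 7 lower (0.0541%). Each of these counts fell when a library was left out, as given below under the processing. Before adjustment, 610 genes passed p under 0.05 upwards (4.72%) and 408 downwards (3.16%). Both K198Q libraries lay above both EV libraries in 2048 genes (15.8%) and below them in 2366 (18.3%). Over all genes compared, 47.7% had a positive difference, the median log2 difference was -0.01, the median absolute difference 0.12 and the median SE 0.17. These counts come from a fit that does not pair the libraries by replicate number. With that number as a block, the called genes were 129 higher and 7 lower, and with no limit on the fold 271 and 88. All 84 and all 4 were among them. The 84 higher genes, Pax5 among them, had log2 differences from 1.51 to 7.85, with a median of 2.85. A group of 37 had an EV mean of at most 10 normalized counts, 9 were listed at 0 in both EV libraries, and 22 had an EV mean above 100. With K198Q, 53 reached a mean of at least 100 and 15 of at least 1000. The filter on low values was passed through the K198Q libraries alone by 30 of the 84, which had to differ. The differences are on the log2(value + 1) scale, which understates the change of genes near 0.

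**Figure D1:**
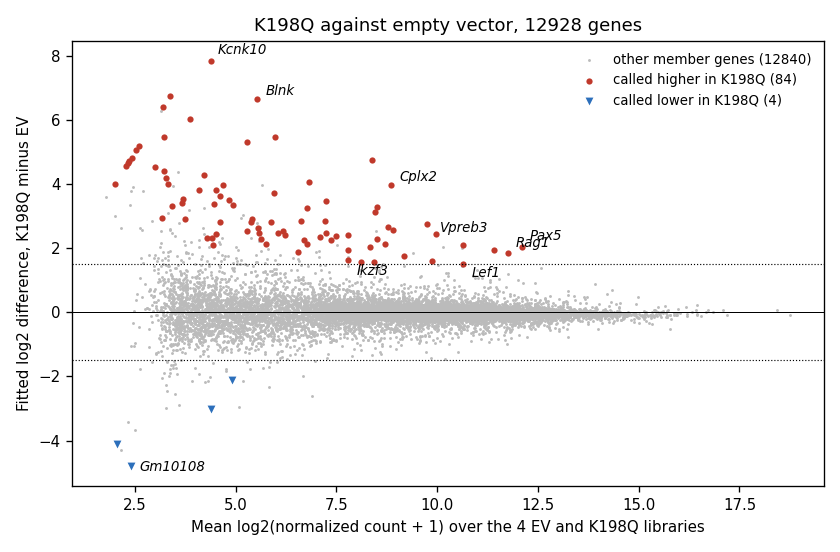
Mean of EV and K198Q (log2 of normalized counts + 1, horizontal axis) against the log2 difference K198Q minus EV (vertical axis) for the 12928 genes, 1 point per gene, with called genes coloured. The 84 called increases reach 7.85, and the 4 called decreases stand opposite them.

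Genes of the B cell receptor complex and its signalling chain were among those raised. Blnk, the adaptor that links the pre-B cell receptor to its downstream enzymes, had 2.56 and 4.90 normalized counts with EV and 547 and 397 with K198Q. The lowest K198Q library was far above the highest EV library (log2 difference 6.67 ± 0.27 SE, limma adjusted p = 0.00015). The EV values of Blnk were both under the filter's minimum of 10, so that Blnk had to differ and its call is given as a description. Vpreb3, a surrogate light chain relative, had 733 and 813 with EV and 3471 and 3158 with K198Q, a 4.29-fold difference (2.10 ± 0.12, limma adjusted p = 0.000577). Cd79a, a signal-transducing chain of the receptor, had 2282 and 2247 with EV and 5321 and 5140 with K198Q. It rose 2.31-fold (1.21 ± 0.11, limma adjusted p = 0.00365), under the limit on the fold. Its partner Cd79b had 4094 and 4267 with EV against 4913 and 5201, a log2 difference of 0.27 that did not pass (limma adjusted p = 0.467).

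The surrogate light chain genes were already high without Pax5. Igll1 rose by 0.90 on the log2 scale (limma adjusted p = 0.0342, and up to 0.265 with 1 library left out). Vpreb1a had a log2 difference of 0.66 (limma adjusted p = 0.127, and 0.00335 with the replicate block), and Vpreb1b of 0.63 (limma adjusted p = 0.315, and 0.00789 with the block). These are near-identical copies, and how their reads were divided is uncertain. The heavy chain gene Ighm, at 35821 and 39098 with EV and 34316 and 33233 with K198Q, did not pass the test (limma adjusted p = 0.947). Of 22 measured genes of pre-B cell receptor and B cell receptor signalling, 15 had a positive difference, 4 passed the adjusted p and 2 of these, Blnk among them, also the limit on the fold. Their median log2 difference was 0.10 beside -0.01 over all genes compared. Of all genes compared, 47.7% had a positive difference, 0.897% passed the adjusted p upwards and 0.65% were called higher. The kinase gene Btk had 2617 and 2902 with EV and 2993 and 2986 with K198Q, and did not pass (limma adjusted p = 0.988).

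Of 22 measured genes known to be activated by Pax5, 20 had a positive difference with K198Q, 10 passed the adjusted p and 8 were called, none of them lower. Over all genes compared, 47.7% had a positive difference, 0.897% passed the adjusted p upwards and 0.65% were called higher. Among those called, Blnk and Cd55 passed the filter on low values through the K198Q libraries alone, so that they had to differ. The median log2 difference of the list was 0.86. The list holds genes that the study itself picked out in these samples, such as Cd55, so its count is not independent evidence of a direction. In 15 of the 22 both K198Q libraries lay above both EV libraries, an order seen in 15.8% of all genes compared. The genes called included Blnk, Cd55, Cplx2, Vpreb3, Bst1, Ikzf3 and Lef1. Cd55, a regulator of complement, was listed at 0 in both EV libraries and had 28.3 and 22.8 with K198Q. Cplx2, a regulator of vesicle fusion, had 77.4 and 171 with EV and 1830 and 1842 with K198Q, 14.8-fold in the means (limma adjusted p = 0.00337). Bst1, an ecto-enzyme of the B cell surface, had 123 and 99.4 with EV and 509 and 365 with K198Q (limma adjusted p = 0.0091, and up to 0.0951 with 1 library left out). Both pairs were well apart. Other genes of the list did not pass. Cd72, an inhibitory coreceptor, had 289 and 251 with EV and 412 and 341 with K198Q (limma adjusted p = 0.65). Bach2, a repressor of plasma cell differentiation, had 994 and 1044 with EV and 1199 and 1220 with K198Q, without overlap (log2 difference 0.25, limma adjusted p = 0.692). Bank1, a scaffold of the B cell receptor, had 203 and 76.4 with EV and 87.5 and 65.7 with K198Q, and its libraries overlapped (limma adjusted p = 0.885).

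**Figure D2:**
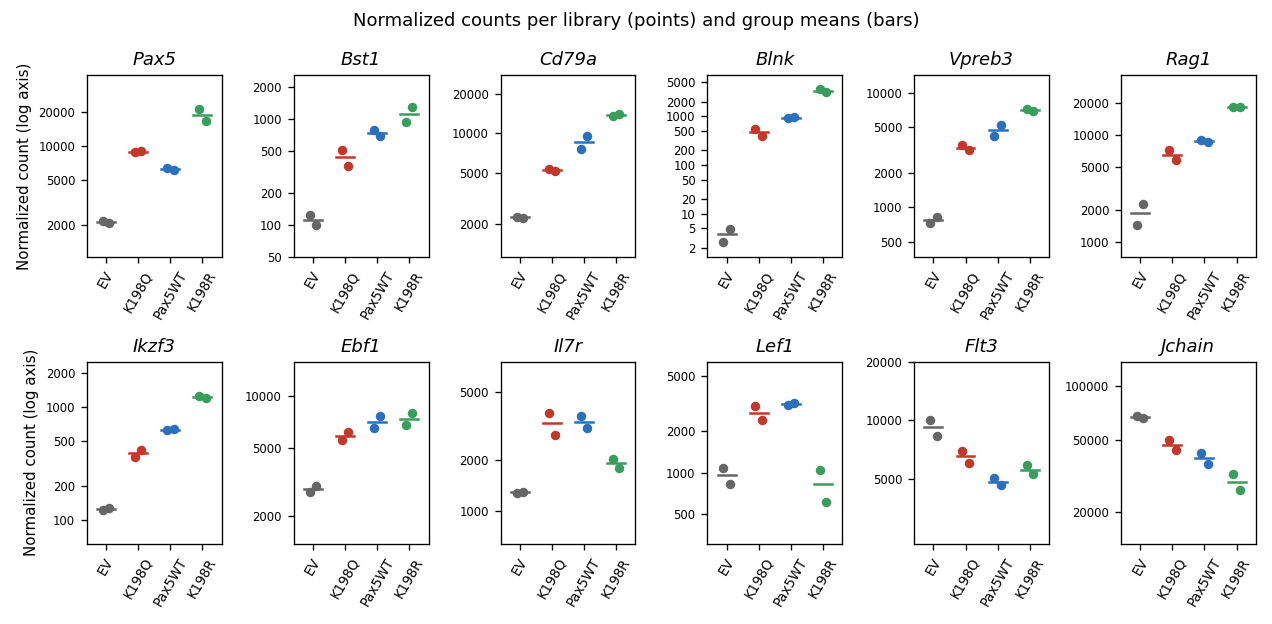
Normalized counts (log axis) of 12 genes in each of the 8 libraries of Pax5-/- cells, 1 point per library, by group (EV, Pax5WT, K198Q, K198R). Blnk stands at 2.56 and 4.90 with EV and at 547 and 397 with K198Q, while Flt3 and Jchain are lower with K198Q than with EV in both libraries.

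The recombinase genes rose as well. Rag1, which with Rag2 forms the enzyme that cuts antigen receptor gene segments, had 1443 and 2289 with EV and 7230 and 5909 with K198Q. The means differed 3.52-fold without overlap (log2 difference 1.85 ± 0.20 SE, limma adjusted p = 0.00657, and 0.0721 without K198Q replicate 1). Rag2 had 195 and 298 with EV and 638 and 535 with K198Q, 2.38-fold (1.27 ± 0.21, limma adjusted p = 0.044, and 0.358 without K198Q replicate 1). No other of the 11 measured genes of V(D)J recombination passed the adjusted p (1 more, Foxo1, with the replicate block), and the median of the list was 0.07. Lig4, the ligase of the end-joining step, had 268 and 371 with EV and 514 and 555 with K198Q without overlap, and did not pass (limma adjusted p = 0.614). Dntt, the polymerase that adds bases at the joints, was low in the 4 libraries compared, with 3.62 and 1.85 with EV and 4.43 and 1.79 with K198Q, and had 19.02 and 20.3 with Pax5WT.

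Among transcription factors of early B cells, Ikzf3 and Lef1 were called. Ikzf3, the Ikaros relative Aiolos, had 123 and 127 with EV and 364 and 420 with K198Q (log2 difference 1.64 ± 0.14 SE, limma adjusted p = 0.00201). Lef1, a nuclear partner of the Wnt pathway, had 1092 and 830 with EV and 3038 and 2430 with K198Q, just past the limit on the fold (1.51 ± 0.25, limma adjusted p = 0.0416), and its adjusted p lay between 0.124 and 0.335 when any 1 of the 4 libraries was left out. Both pairs were separate. Ebf1, the factor that specifies the B lineage beside Pax5, had 2760 and 3007 with EV and 5545 and 6135 with K198Q. It rose 2.03-fold (1.02 ± 0.12, limma adjusted p = 0.00948, and 0.0504 to 0.0971 with 1 library left out), under the limit on the fold. Over the 22 measured factors the median log2 difference was 0.18, with 16 positive. Of them 3 passed the adjusted p (6 with the replicate block) and 2 were called. Over all genes compared, 47.7% were positive, 0.897% passed the adjusted p upwards and 0.65% were called higher. Foxo1, a regulator of the Rag genes, and Erg, an ETS factor of progenitors, were higher in both K198Q libraries by 0.45 and 0.68 on the log2 scale and missed the threshold (limma adjusted p = 0.0725 and 0.056), which both passed with the replicate block (0.0111 and 0.0153). Tcf7, a factor best known from T cells, had 38.9 and 67.4 with EV and 160 and 167 with K198Q (limma adjusted p = 0.0734, and 0.0301 with the block).

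Il7r, the receptor for the cytokine in the medium, had 1286 and 1293 normalized counts with EV and 3758 and 2796 with K198Q. It rose 2.54-fold without overlap (log2 difference 1.33 ± 0.15 SE, limma adjusted p = 0.0088, and up to 0.0775 with 1 library left out). Of 20 measured genes of IL-7 receptor and STAT signalling no other passed the adjusted p, although Ccnd3, a cyclin gene, did with the replicate block (log2 difference 0.44, limma adjusted p = 0.333, and 0.00894 with the block), and 13 of the 20 had a negative difference (median -0.07). Of 24 cell cycle genes, 12 had a positive and 12 a negative difference, and none passed, also at an unadjusted p under 0.05. Of 13 measured genes of the BCL2 family, none passed, with a median of -0.07. Of 18 measured interferon-stimulated genes, Gbp2 passed the adjusted p, and the median was -0.02. Gbp2, a guanylate-binding GTPase, had 77.5 and 98.4 with EV and 242 and 250 with K198Q (1.48 ± 0.24, limma adjusted p = 0.0365, and 0.108 to 0.25 with 1 library left out).

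The largest increases were mostly genes outside these lists. Kcnk10, a potassium channel gene, had 0.90 and 0 with EV and 388 and 260 with K198Q (log2 difference 7.85 ± 0.42 SE, limma adjusted p = 0.000411). Arhgef33, which encodes a guanine nucleotide exchange factor, was listed at 0 in both EV libraries and had 98.7 and 70.8 with K198Q (limma adjusted p = 0.000354). These genes were thus at or near 0 without Pax5. Itih3, of the inter-alpha-trypsin inhibitor family, had 0.93 and 0 with EV and 53.2 and 69.4 with K198Q (limma adjusted p = 0.00182). Rtn4rl2, a relative of the Nogo receptor, had 4.80 and 14.3 with EV and 428 and 410 with K198Q (limma adjusted p = 0.00182). Col27a1, a fibrillar collagen, had 1.51 and 14.2 with EV and 311 and 191 with K198Q, so that the EV pair spread widely (5.31 ± 0.77, limma adjusted p = 0.0225). Trmt9b, Gm266, Rcan2 and LOC118568338 were also among the 12 largest, as were the kappa variable segment Igkv4-91 and Blnk. The K198Q values were 102 and 134 for Trmt9b, 35.7 and 29.4 for Gm266, 31.8 and 23.8 for Rcan2 and 26.9 and 46.9 for LOC118568338. With EV they were 0 and 2.27 for Trmt9b and 0 in both for Gm266, Rcan2 and LOC118568338. These genes passed the filter on low values through the K198Q libraries alone, so that they had to differ and their calls are given as a description. Besides Pax5, 11 of the 31 called genes described stayed called with each library left out in turn, and these were Blnk, Vpreb3, Ikzf3, Cplx2, Cd55, Kcnk10, Arhgef33, Itih3, Rtn4rl2, Gm266 and Gab1. Of these, 6 (Blnk, Cd55, Kcnk10, Arhgef33, Itih3 and Gm266) had both EV values under the filter's minimum of 10, so that their EV libraries did not help them pass it, and staying called is no support for them.

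Of the other raised genes, 5 are given here, which were chosen after their values were seen and were not tested as a group. Tgfb3 and Tgfb2 encode ligands of the TGF-beta family. Tgfb3 had 330 and 331 with EV and 2850 and 1757 with K198Q, 6.98-fold in the means (limma adjusted p = 0.0193). Tgfb2 had 169 and 148 with EV and 671 and 635 with K198Q, 4.12-fold (limma adjusted p = 0.0088). The K198Q libraries of Tgfb3 lay further apart than those of Tgfb2. Gab1, a docking protein for receptor tyrosine kinases, had 20.3 and 12.6 with EV and 254 and 200 with K198Q (limma adjusted p = 0.00136). Il5ra, the receptor chain specific for IL-5, had 3.45 and 4.32 with EV and 40.0 and 31.4 with K198Q (limma adjusted p = 0.00957). Cdkn2a, which encodes inhibitors of the cell cycle, had 63.2 and 88.4 with EV and 374 and 343 with K198Q (limma adjusted p = 0.033). Of these 5 genes only Gab1 stayed under an adjusted p of 0.05 with each library left out in turn, and its highest value was 0.0258. For Tgfb3, Tgfb2 and Cdkn2a the adjusted p was above 0.05 in each of these fits, at up to 0.164, 0.1 and 0.265.

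Pax5 bound near some of the genes raised. Peaks of Pax5 ChIP-seq in Pax5-/- cells with K198Q were called by the authors in each of 2 replicates, and a K198Q peak here is one found in both with an overlap of at least 1 base. Of the 84 genes higher with K198Q, 19 had such a peak with its summit within 5 kb of an annotated start (22.6%, 95% Wilson interval 15 to 32.6%), against 1599 of 12872 genes compared that have a start in the annotation (12.4%, 11.9 to 13.0%). None of the 4 lower genes had one. Peaks of Pax5WT by the same measure lay near 30 of the 84 (35.7%, 26.3 to 46.4%) and 4483 of 12872 (34.8%, 34.0 to 35.7%), so that the share near the raised genes was close to the background for Pax5WT. The 84 are part of the 12872 and genes are not replicates, so the intervals do not test a difference between the shares. The filter on low values was passed through the K198Q libraries alone by 30 of the 84. For K198Q within 1 kb the share was 15.5% (9.27 to 24.7%) against 10.5% (9.97 to 11%). Within 50 kb it was 35.7% (26.3 to 46.4%) against 29.7% (28.9 to 30.5%). Of the 84, 18 had peaks of both forms, 12 of Pax5WT alone, 1 of K198Q alone (Adamts7) and 53 of neither. The intervals cover counting error only.

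The sequences under the K198Q peaks are shown for 3 genes with the largest increases among those with a peak and a stretch of at least 100 bases outside annotated exons, since these peaks lie at genes with the largest RNA differences. Each is the part outside exons of the 300 bases around the summit, read from the plus strand of mm10, and capitals mark the letters GCNTGAC or their reverse complement, a core of the Pax5 motif whose last letters, TGAC, also occur in motifs of other factors such as AP-1. Kcnk10 and Itih3 lie on the minus strand and Arhgef33 on the plus strand. The Kcnk10 window (chr12:98575128-98575262) is the part outside exons next to the exon that holds the peak summit, at base 98575113. The summit itself is thus not in the stretch shown. For this gene on the minus strand the stretch lies on the upstream side of that exon, within the span of the gene. The gene spans chr12:98429437-98578310, and the summit lies 14 bp from an annotated start. The Arhgef33 window (chr17:80370756-80371055) lies within an intron, 291 bp from the nearest annotated start, in a gene at chr17:80307407-80400081. The Itih3 window (chr14:30913393-30913692) is also intronic, 586 bp from the nearest start, in a gene at chr14:30908572-30923760.
Kcnk10: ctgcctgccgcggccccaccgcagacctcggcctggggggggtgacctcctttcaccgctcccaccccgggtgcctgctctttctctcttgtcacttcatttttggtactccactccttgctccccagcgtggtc
Arhgef33: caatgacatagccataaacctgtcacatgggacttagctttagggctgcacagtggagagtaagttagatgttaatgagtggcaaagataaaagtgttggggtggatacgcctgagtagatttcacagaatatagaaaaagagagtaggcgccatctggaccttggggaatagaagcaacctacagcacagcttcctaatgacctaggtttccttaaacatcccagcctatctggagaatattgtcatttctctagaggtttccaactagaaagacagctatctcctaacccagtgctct
Itih3: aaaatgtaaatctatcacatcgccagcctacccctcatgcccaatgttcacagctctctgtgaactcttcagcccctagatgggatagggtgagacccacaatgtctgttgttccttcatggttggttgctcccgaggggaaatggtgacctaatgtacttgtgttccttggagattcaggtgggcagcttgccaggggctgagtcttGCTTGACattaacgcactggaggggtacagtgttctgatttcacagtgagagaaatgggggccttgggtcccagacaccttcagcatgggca

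The GCNTGAC letters were present in the Itih3 window and not in the other 2 as printed, which says only that these letters are not in those windows. Searched on both strands in 300-base windows around the summits, they were present in 607 of 2422 K198Q peaks (25.1%) and 1583 of 7908 Pax5WT peaks (20%). Of the 19 K198Q peaks near raised genes, 4 held them (21.1%, 95% Wilson interval 8.51 to 43.3%). The letters were present in 3518 of 32851 RefSeq promoters of the same length on the same mouse assembly (10.7%). Among promoters of the genes compared they were in 1472 of 12282 (12%). They were in 8 of 93 promoters of the raised genes (8.6%, 95% Wilson interval 4.42 to 16.1%), of which 64 matched a promoter by symbol. A match is a description of the sequence and not a measured site. Peak heights at the same 3 genes, as fold enrichment over input in the 2 replicates, were 13.9 and 18.6 with K198Q against 28.9 and 27.1 with Pax5WT at Kcnk10. They were 6.48 and 6.67 against 10.4 and 9.84 at Arhgef33. They were 6.66 and 6.30 against 21.6 and 18.3 at Itih3. K198Q was lower than Pax5WT in both replicates at each of the 3. Of the 18 raised genes with peaks of both forms, this held for 15, and in 3 K198Q was lower in replicate 1 but higher in replicate 2. Vpreb3 was among the latter, with 16.6 and 19.6 with K198Q against 27.8 and 12.5 with Pax5WT. The same counts over all genes with peaks of both forms are not given, so those of the 18 cannot be read against a background. Blnk, whose peak (chr19:40994059-40994432) lies 69 bp from its start, had 10.1 and 12.1 with K198Q and 15.9 and 23.5 with Pax5WT.

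Near genes activated by Pax5, K198Q peaks stood at 12 of 22 and Pax5WT peaks at 17 of 22, beside 12.4% and 34.8% of all genes compared. Near genes of pre-B cell receptor and B cell receptor signalling they stood at 11 and 16 of 22, near early B lineage transcription factor genes at 7 and 16 of 22, and near genes of ERK feedback and the immediate early response at 7 and 9 of 17. Near genes repressed by Pax5 they stood at 1 and 4 of 15, which is close to the shares of all genes, and near NK and cytotoxic genes at 0 and 1 of 12. Across the genome, 2424 K198Q peaks were found in both replicates (64.6% of the 3750 in replicate 1 and 61.3% of the 3957 in replicate 2) and 7914 Pax5WT peaks. Of the K198Q peaks, 2357 (97.2%) overlapped a Pax5WT peak of both replicates, and of the Pax5WT peaks 2340 (29.6%) overlapped one of K198Q. The number of peaks depends on the enrichment of each library, which the lists do not give for the whole genome. Their median fold enrichment was 5.60 and 5.67 for K198Q and 5.69 and 5.68 for Pax5WT.

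**Figure D3:**
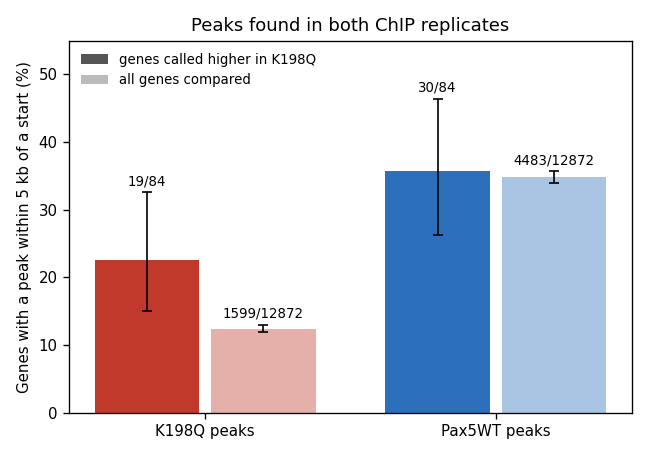
Percent of genes with a peak of both replicates within 5 kb of a start (vertical axis), for the genes called higher with K198Q and all genes compared (paler bars), for K198Q and Pax5WT peaks, with 95% Wilson intervals as lines and counts above them. The K198Q share is 22.6% near the 84 raised genes and 12.4% over all genes, and the Pax5WT shares are 35.7% and 34.8%.

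Genes that Pax5 is known to repress were lower with K198Q in their point values, but none passed by limma without the replicate block and 3 did with it (Flt3, Jchain and Emb, the last at a limma adjusted p = 0.04995), and 4 of them reached an unadjusted p under 0.05. All 15 measured had a negative difference, with a median of -0.45 beside -0.01 over all genes. In 10 of the 15 both K198Q libraries lay below both EV libraries, an order seen in 18.3% of all genes compared. The list holds Il2rb and Gata3, which the study itself picked out in these samples. Its count is thus not independent evidence of a direction. Flt3, a cytokine receptor of progenitors, had 10022 and 8343 with EV and 6974 and 6057 with K198Q (log2 difference -0.49, limma adjusted p = 0.207, and 0.00607 with the replicate block). Jchain, the joining chain of secreted antibodies, had 67983 and 65946 with EV and 49783 and 43961 with K198Q (-0.52, limma adjusted p = 0.21, and 0.0124 with the block). Il2rb, a receptor chain for IL-2 and IL-15, had 955 and 914 with EV and 567 and 524 with K198Q (-0.78, limma adjusted p = 0.401). None of the 3 overlapped. Notch1 had 12888 and 12524 with EV and 10020 and 11693 with K198Q (-0.23, limma adjusted p = 0.827). The list summed to 123752 and 116922 normalized counts with EV and to 93125 and 84862 with K198Q, most of it Jchain.

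None of the listed markers of other lineages was called in either direction without the replicate block. Outside the lists, Trgc2, a T cell receptor gamma constant gene, was called higher: it had 15.04 and 13.99 with EV and 141 and 96.5 with K198Q (log2 difference 2.92 ± 0.36 SE, limma adjusted p = 0.0103, and 0.0508 to 0.119 with 1 library left out). Trdv5, a T cell receptor delta segment, was called lower and is described with the decreases. With the block, the T cell gene Tcf7 was called higher (log2 difference 1.65, limma adjusted p = 0.0301), and the myeloid gene Lyz2 passed the adjusted p (1.20, limma adjusted p = 0.0497). Of 12 measured NK and cytotoxic genes, 11 had a negative difference with a median of -0.58, and 2 of them reached an unadjusted p under 0.05. Nkg7, a granule protein gene, had 468 and 569 with EV and 260 and 303 with K198Q (-0.87, limma adjusted p = 0.218). The study picked out Nkg7 and Il2rb of this list in these samples, so its count is not independent evidence of a direction. Of 13 measured myeloid genes 9 had a negative difference (median -0.35), with 1 in each direction at an unadjusted p under 0.05. Of 16 measured T cell genes 10 had one (median -0.20), and 5 reached an unadjusted p under 0.05, 3 upwards and 2 downwards. Of 11 measured markers of immature and mature B cells, 10 had a negative difference, with a median of -0.45. Progenitor genes had a median of -0.11 over 10 measured, plasma cell genes -0.02 over 6, and genes of ERK feedback and the immediate early response -0.03 over 17, with no calls. Cd27, a receptor of the TNF family and one of the progenitor genes, had 487 and 546 with EV and 249 and 224 with K198Q (-1.12, limma adjusted p = 0.152, and 0.0479 with the block). With the block, 1 progenitor gene passed the adjusted p upwards and 2 downwards. Of 13 measured pro-B markers, 11 had a positive difference (median 0.66), 6 passed the adjusted p (9 with the block) and 1, Rag1, was called. Over all genes compared, 47.7% had a positive difference, 0.897% passed the adjusted p upwards and 0.65% were called higher. Other lists also hold genes that the study picked out in these samples, such as Rag1 among the pro-B markers and Zap70 among the T cell genes. Their counts are not independent evidence of a direction either. Whether the lists differ from each other was not tested. The summed levels with Pax5WT and K198R on the same scale were 4346 and 3680, and 2680 and 1144, for the NK genes.

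**Figure D4:**
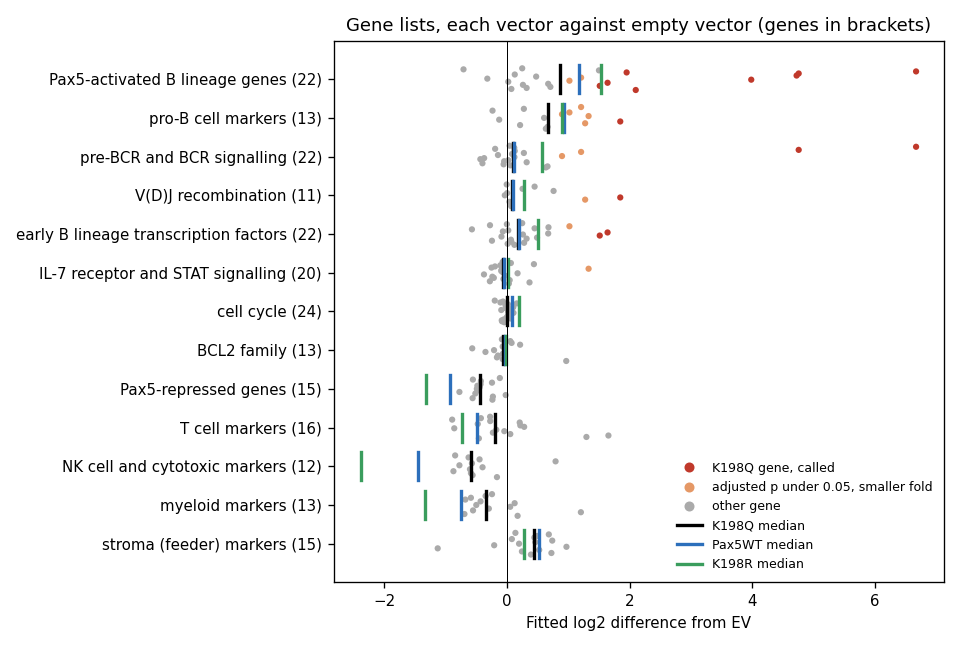
Log2 difference from EV (horizontal axis, value + 1) for 13 gene lists (vertical axis), with 1 dot per measured gene for K198Q and vertical ticks for the medians of K198Q, Pax5WT and K198R, which share the 2 EV libraries. The K198Q median is 0.86 for genes activated by Pax5 and -0.45 for genes repressed by it.

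The 4 called decreases were all low transcripts, and none stayed called when any 1 library was left out, with limma adjusted p from 0.0561 for Ighv5-4 to 0.318 for Gm10108. Of these genes, 3 (Ighv5-4, Gm13378 and Gm10108) passed the filter on low values through the EV libraries alone, so that they had to differ and their calls are given as a description. Ighv5-4, a heavy chain variable segment, had 67.0 and 51.9 with EV and 6.96 and 5.94 with K198Q (log2 difference -3.01 ± 0.36 SE, limma adjusted p = 0.00945). Trdv5, a T cell receptor delta variable segment, had 63.3 and 59.9 with EV and 13.9 and 12.9 with K198Q (-2.12 ± 0.35, limma adjusted p = 0.0388). Gm13378 had 17.4 and 15.02 with EV and Gm10108 had 20.6 and 34.6, and both were listed at 0 in the K198Q libraries. Variable segments are rearranged clonally, and their levels with Pax5WT, 239 and 179 for Ighv5-4 and 123 and 205 for Trdv5, were above both EV and K198Q. Gm10108 was listed at 0 with Pax5WT and K198R too. Under the limit on the fold, Rps6ka1, a kinase of the ERK pathway, had 2460 and 2329 with EV and 1611 and 1565 with K198Q (-0.59 ± 0.10, limma adjusted p = 0.0477, and 0.186 to 0.333 with 1 library left out), and BC064078 had 1390 and 1341 with EV and 715 and 695 with K198Q (-0.95 ± 0.13, limma adjusted p = 0.0193, and 0.113 to 0.172).

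K198Q was next set against Pax5WT in the same fit. Since both were compared with the same EV libraries, the differences from EV are given side by side and the test is that between the forms. Pax5WT against EV gave 152 genes higher (1.18%) and 35 lower (0.271%), and K198R against EV 165 higher (1.28%) and 417 lower (3.23%). Tested directly, 3 genes were lower with K198Q than with Pax5WT (0.0232%) and 0 higher by limma, with 428 at an unadjusted p under 0.05 (3.31%). The direct comparison gave 12 calls with the replicate block, which are not described here, and fewer than 3 when a library was left out. The 3 genes were Ighv5-4, Trdv5 and Trgc2, of which the last had 1260 and 1717 with Pax5WT. All 3 belong to antigen receptor loci.

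The 84 raised genes were chosen on their difference from EV, so their levels against Pax5WT are given as a description. The mean with K198Q was below that with Pax5WT in 60 of the 84, and the median ratio of the means was 75.8%. Both K198Q libraries lay below both Pax5WT libraries in 48 and above both in 13. The same counts over all genes compared are not given, so these counts cannot be read against a background. The median log2 difference K198Q minus Pax5WT was -0.41 over the 84 and -0.01 over all genes compared. Cd79a, which was under the limit on the fold, had 7561 and 9491 with Pax5WT and a difference of -0.70 (95% interval -0.96 to -0.43, unadjusted p = 0.000309, limma adjusted p = 0.217). Blnk had 915 and 954 with Pax5WT, and the difference was -1.0 on the log2 scale (interval -1.62 to -0.38). Ikzf3 had 627 and 639 (-0.69, interval -1.01 to -0.37), and Vpreb3 had 4163 and 5200 (-0.49, interval -0.78 to -0.20). For none of the 4 did the adjusted p pass. For other genes the interval held 0. It ran from -0.89 to 0.03 for Rag1 and from -0.55 to 0.02 for Ebf1. It ran from -0.39 to 0.32 for Il7r, where Pax5WT had 3614 and 3058, and from -0.80 to 0.36 for Lef1, where it had 3114 and 3196. A missed threshold here does not show that the forms act alike. K198Q had more Pax5 transcript than Pax5WT in its point values, whereas the paper found less K198Q protein in a transfected cell line.

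**Figure D5:**
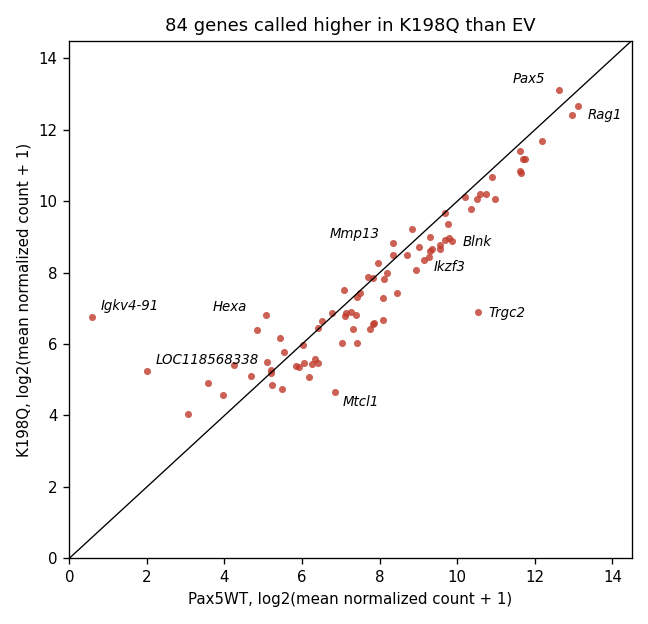
Log2 of the mean normalized count + 1 with Pax5WT (horizontal axis) against K198Q (vertical axis) for the 84 genes called higher with K198Q, 1 point per gene, with the line of equal values. In 60 of the 84 the K198Q mean is the lower one, and the share over all genes compared is not given.

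Across the genes tested, the Euclidean distance between group means on the log2 scale was 60.4 between EV and K198Q, 75.0 between EV and Pax5WT and 93.1 between EV and K198R. Between Pax5WT and K198Q it was 47.0, the smallest of the 6, and between K198Q and K198R 77.0. These distances include the noise of 2 libraries per group. The 2 K198Q libraries were not equal in the raised genes, as replicate 1 was above replicate 2 in 55 of the 84 (65.5%, against 50.8% of all genes compared), with a median log2 ratio of 0.18. Whether this bears on the calls was not tested beyond leaving out each library.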

How the data were processed

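RNA-seq was made from Pax5-/- pro-B cells with EV, Pax5WT, K198Q or K198R (2 libraries each), and Pax5 ChIP-seq from Pax5-/- cells with each form (2 replicates). The gene lists, the genes compared and the rule for named genes were chosen with earlier results of these data known. The authors quantified transcripts with Salmon, summed them to genes with Tximeta and deposited a normalized signal per gene, which is a count divided by the size factor of DESeq2. The values of a library have no common step, so reads could not be recovered and no count test was used. For ChIP-seq the authors aligned with Bowtie2 to mm10, called peaks over input with MACS2 and deposited a separate list for each replicate, holding the enrichment over input as a ratio (fold) and −log10 of the q-value.

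Genes with at least 10 normalized counts in 2 of the 8 libraries (13345) were tested on log2(value + 1) with limma 3.58.1 in R 4.3.3 (variance trend on mean level), in 1 fit over the 4 groups with Benjamini-Hochberg adjustment over all tested genes. No gene among the 417 tested that were not compared here was called. An exact test of 2 against 2 cannot give p below 0.33. Symbols came from the file for 12350 genes and from the reference for 531. Genes were named from the 12 largest called changes in each direction, genes the study names and the called or leading members of each list, and other genes were chosen after their values were seen. Replicate numbers pair the libraries: deviations of same-numbered libraries correlated between 0.279 and 0.424 in all 6 pairs of groups, the replicates were made on different days, and the third principal component (15.9%) separated the numbers. The main fit does not use this pairing. All counts and p-values, and each statement that a gene did not pass, refer to that fit unless the replicate block is named. With the block more genes passed, above all among the lower ones with no limit on the fold. Sequences were read from mm10 with pysam 0.24.0, and promoters from RefSeq. The script was tested on simulated data. Depth before normalization is not given in the sources used here. Some gene results are not reported here.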

Additional observations from a re-analysis of the deposited data

How the results depend on the processing

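Pax5 was called in every alternative run. The number of called genes in the lists (9) ranged from 6 to 10, and they were not always the same: with 1 library left out Lef1 lost its call in all 4 fits, Bst1 in 2 and Rag1 in 1. All 84 increases and 4 decreases were also called with the replicate block. The number of genes called higher (84) was 54 with no filter on low values, 129 with the replicate block, 48 with voom weights and 43 at an adjusted p under 0.01, and ranged from 28 to 53 when 1 library was left out: 46 without EV replicate 1, 53 without EV replicate 2, 28 without K198Q replicate 1 and 32 without K198Q replicate 2. With no limit on the fold (116) it was 68 with no filter, 76 on the 4 EV and K198Q libraries alone, 271 with the block, 67 with voom weights, 73 without a trend, and 30 to 67 with 1 library left out. The number called lower (4) was 7 with the block, 2 with voom weights, 1 at an adjusted p under 0.01 and 0 to 0 with 1 library left out. With no limit on the fold (7) it was 4 with no filter, 88 with the block, 4 with voom weights and 0 to 0 with 1 library left out. Calls between K198Q and Pax5WT (3) were 5 with a pseudocount of 0.5, 5 after quantile normalization, 12 with the block and 0 to 1 with 1 library left out. The lone library is then taken to vary like the other groups. The share of raised genes with a K198Q peak (22.6%) was 35.7% within 50 kb and 38.1% with peaks of either replicate, and that of all genes (12.4%) was 10.5% within 1 kb, 29.7% within 50 kb, 25.1% with peaks of either replicate, 9.74% at a −log10 q of at least 5 and 11.4% with a reciprocal overlap. Among small differences, that of Dntt (0.10) was -0.50 after quantile normalization and ranged from -0.38 to 0.58 with 1 library left out, and that of Fn1 (0.20) from -0.28 to 0.67. Besides the values given beside the genes, the block also called Igkc and Ighv3-3, both at an adjusted p of 0.0473, and changed no other call of a named gene. The causes were not tested.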

Other observations

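The values of 3 antigen receptor transcripts are given here, of which 1, Igkv4-91, passed the test against EV. Igkv4-91 and Ighv3-3 passed the filter on low values through the K198Q libraries alone. Both thus had to differ, and their adjusted p against EV is given as a description. Igkv4-91, a kappa variable segment, was listed at 0 in both EV libraries and had 116 and 99.4 normalized counts with K198Q, 0 and 1 with Pax5WT and 0 in both with K198R. It was called higher with K198Q than with EV (limma adjusted p = 0.0053, and 0.1 without K198Q replicate 1). Igkc, the kappa constant gene, had 11.8 and 11.9 with EV, 225 and 177 with K198Q, 81.8 and 116 with Pax5WT and 18.5 and 1 with K198R, and did not pass against EV (limma adjusted p = 0.145, and 0.0473 with the replicate block). Ighv3-3, a heavy chain variable segment, had 2.92 and 1.01 with EV and 39.3 and 44.4 with K198Q, and was listed at 0 in both Pax5WT libraries (limma adjusted p against EV = 0.0898, and 0.0473 with the replicate block). In each of these the K198Q libraries lay above those of every other group. These genes were chosen after their values were seen, and whether they reflect a few expanded clones was not tested.

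The direct comparison of K198Q with K198R was added after the values were seen. It gave 272 genes higher with K198Q (2.1%) and 47 lower (0.364%), between groups that also differ in Pax5 transcript. Lef1 had 1042 and 611 with K198R, within or below the EV values, and was higher with K198Q (1.77, limma adjusted p = 0.01). Chd3, a chromatin remodeller gene, had 195 and 152 with EV, 956 and 1258 with K198Q, 883 and 1484 with Pax5WT and 211 and 113 with K198R, and was higher with K198Q than with K198R (2.82, limma adjusted p = 0.00727). Rxfp1, the relaxin receptor gene, had 5.89 and 2 with EV, 73.7 and 53.8 with K198Q, 110 and 150.9 with Pax5WT and 2.80 and 1.93 with K198R (4.26, limma adjusted p = 0.00651). For Chd3 and Rxfp1 the K198R libraries were thus near those of EV, and the K198Q libraries near those of Pax5WT or below them.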
